A study of Mus musculus with 12 samples.

Results

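The genes described here are 41 mouse genes of leptomeningeal fibroblasts and of the fibrillar extracellular matrix, measured in hippocampus RNA of *Nell-1+/6R* and WT mice. They were chosen by symbol, as known fibroblast markers, collagens and matrix proteins, and were found by Entrez gene ID among the 27179 gene IDs of the count table. The choice was made with earlier results of these data known, and 19 of the 41 were in the study's own list of changed genes. All 41 were present, and all 41 were among the 17937 genes that passed the filter on low counts (0.2 CPM or more in 2 or more mice). By mean CPM in WT mice the median gene of the 41 stood at the 47.7 percentile of all genes tested, and they ran from 12.4 (*Lox*) to 98.8 (*Ptgds*). In WT mice 23 of them lay between 10 and 100 CPM (the TMM-scaled count rate of edgeR, in parts of 1e+06 counts), 15 between 1 and 10, 2 under 1, and only *Ptgds* above 100.

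The leptomeninges are the inner membranes that cover the brain. Their fibroblasts lie on the brain surface and around the larger vessels that enter it, and they secrete most of the fibrillar collagen of the brain, whereas neurons and glia make little of it. Fibrillar collagen leaves the cell as procollagen, is trimmed by proteases outside the cell, assembles into fibrils whose width is set by small leucine-rich proteoglycans, and is crosslinked by lysyl oxidase. Meningeal fibroblasts also make retinoic acid, which acts on the developing cortex beneath them, and the arachnoid layer next to them forms a barrier sealed by junction proteins. *Nell1* itself encodes a secreted matrix protein best known from bone and cartilage.

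The study collected hippocampi to compare the transcriptomes of *Nell-1*-haploinsufficient mice and WT mice. There were 12 mice, all 3 months old, of which 6 carried 1 *Nell-1* 6R loss-of-function allele (*Nell-1+/6R*) and 6 were WT. Each genotype had 3 females and 3 males, and no mouse was treated. The study describes the WT mice as littermates of the *Nell-1+/6R* mice, but which mice shared a litter is not given. The allele is present in every cell of the body and from conception, so differences cannot be assigned to *Nell1* loss in the hippocampus or at the age of sampling. The sources used here do not say how much of the meninges or the choroid plexus remained on the dissected tissue. Each library was 1 mouse, and in whole tissue fewer cells of a type and less RNA per cell cannot be told apart.

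Libraries held 10834905 to 16016317 counts. *Nell1* had 348 to 635 counts in WT mice and 217 to 303 in *Nell-1+/6R* mice, 36.5 ± 4.55 against 19.1 ± 1.77 CPM (SD, 6 mice each), so that every library matched its genotype label (log2 fold change -0.93 ± 0.08, adjusted p = 0.00015 by edgeR's quasi-likelihood test). The titles of the 6 WT samples read "Het WT", and these were grouped as WT. The sex labels were not checked. The 8 hippocampal neuron markers summed to 9125 to 12630 CPM in WT and 9664 to 11249 in *Nell-1+/6R* mice. Markers of the choroid plexus epithelium, the tissue that secretes the cerebrospinal fluid, split the libraries: their 10 genes, led by *Ttr*, summed to 5214 CPM in the first female *Nell-1+/6R* mouse (replicate 1), to 4685 in male WT replicate 3, to 2123 in female WT replicate 1 and to 802 in female WT replicate 2, but to between 45.9 and 134 CPM in the other 8 mice. The 41 genes were also fitted without these 4 mice, which leaves 3 WT and 5 *Nell-1+/6R* mice.

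In WT hippocampus the order of the genes, per kilobase of exon, was led by *Ptgds*, which encodes the prostaglandin D synthase that meningeal cells secrete into the cerebrospinal fluid, at 615 ± 256 CPM per kilobase (SD, 6 mice). The genes *Igfbp2* (38.4 ± 18.4), *Mgp* (23.6 ± 8.27) and *Dcn* (13.5 ± 4.2) followed on the same scale. Among the fibrillar collagens the level per kilobase was 4.26 ± 1.06 for *Col5a1*, 2.75 ± 0.986 for *Col1a2*, 2.25 ± 0.957 for *Col1a1*, 2.1 ± 0.340 for *Col5a2* and 0.838 ± 0.311 for *Col3a1*, so the minor fibrillar chain *Col5a1* had the highest mean of these. Its range over the WT mice lay above that of *Col3a1* but overlapped those of *Col1a1* and *Col1a2*. *Cdh1* (0.191 ± 0.134) and *Lox* (0.0904 ± 0.0488) were lowest. Of the 40 neighbouring pairs in this order, 38 overlapped in their ranges over the 6 WT mice, and the 2 that did not were *Ptgds* above *Igfbp2* and *Tbx18* above *Cdh1*.

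**Figure D1:**
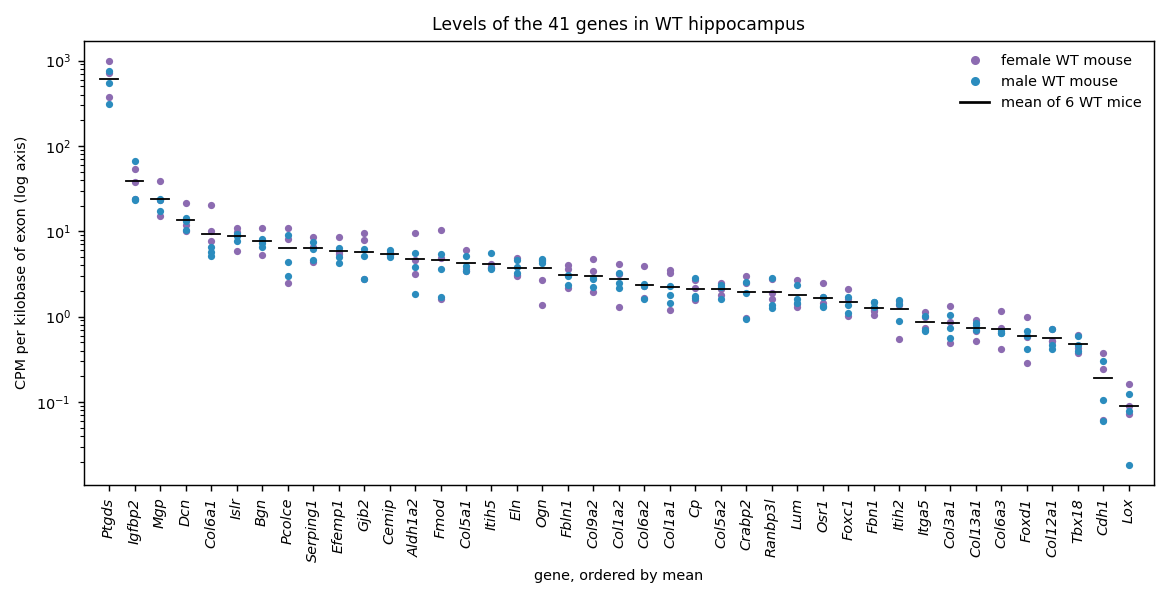
Level of each of the 41 genes in the 6 WT mice, in CPM per kilobase of exon on a log axis, with 1 point per mouse and a line at the mean. *Ptgds* stands alone at the top and *Cdh1* and *Lox* at the bottom, while the ranges of nearly all other neighbours overlap.

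Between the genotypes all 41 genes had a log2 fold change below 0, that is, a lower fitted level in *Nell-1+/6R* mice, against 50.3% of all genes tested. The median log2 fold change of the 41 was -0.58, beside -0.00076 over all genes. The study called a gene changed when its fold exceeded 1.5 and its unadjusted p was below 0.05, and by these thresholds 18 of the 41 were lower and 0 were higher (43.9%), where 1.07% of all genes tested were lower and 0.385% higher. Without the fold threshold 23 of the 41 had an unadjusted p under 0.05, all of them lower, against 2.2% of all genes. Because the 41 were chosen with earlier results of these data known, these shares are fixed in part by that choice. After Benjamini-Hochberg adjustment over all genes tested 0 of the 41 had an adjusted p under 0.05 by edgeR, as did 0.039% of all genes, and 0 did by DESeq2 or limma-voom. The lowest adjusted p of the 41 was 0.749, for *Eln*, and ranged from 0.0760 (DESeq2) to 1.0 for this gene over the alternatives.

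The number past both thresholds moved with single mice. It was 9 without female WT replicate 1, 10 without male WT replicate 2 and 11 without male *Nell-1+/6R* replicate 1, and it rose to 23 without female *Nell-1+/6R* replicate 3. Without the 4 mice with many choroid plexus counts it was 4 (*Col3a1*, *Lox*, *Serping1* and *Itga5*), with 36 of 41 genes still below 0 and a median log2 fold change of -0.44. Of the 14 genes that lost the call there, 11 kept a fold over 1.5 in the 8 mice that remained, among them *Aldh1a2* (-1.25), *Gjb2* (-0.72), *Itih2* (-1.01), *Foxd1* (-0.6), *Cp* (-0.6) and *Ptgds* (-0.75) (log2 fold changes), while the folds of *Col9a2* (-0.35), *Lum* (-0.38) and *Eln* (-0.55) fell short of 1.5. *Col1a1*, *Col1a2*, *Fmod*, *Mgp* and *Cdh1* were the remaining 5 of the 11. With the choroid plexus marker level as a covariate in all 12 mice it was 13, with 40 of 41 below 0. *Lum*, *Mgp*, *Itih2*, *Foxd1*, *Cp* and *Cdh1* lost the call with this covariate and *Ranbp3l* gained it. Of the 18 genes, 8 passed both thresholds in each of the 12 fits that left out 1 mouse: *Col1a1*, *Col1a2*, *Col3a1*, *Lox*, *Aldh1a2*, *Serping1*, *Gjb2* and *Itga5*.

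The study itself listed 19 of the 41 among its changed genes in these same libraries, and 17 of these passed both thresholds here, their median log2 fold change being -0.88. That list was chosen on these samples and is not independent evidence of a direction. Among the other 22 genes the median was -0.33, all 22 were below 0, and 1 passed both thresholds (*Ptgds*). None did without female WT replicate 1 or without male WT replicate 2, 3 did without female WT replicate 3, and 4 did without replicate 1 or replicate 3 of the *Nell-1+/6R* females. Since these 22 are those that the study did not list, their low count is also fixed in part by that choice.

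**Figure D2:**
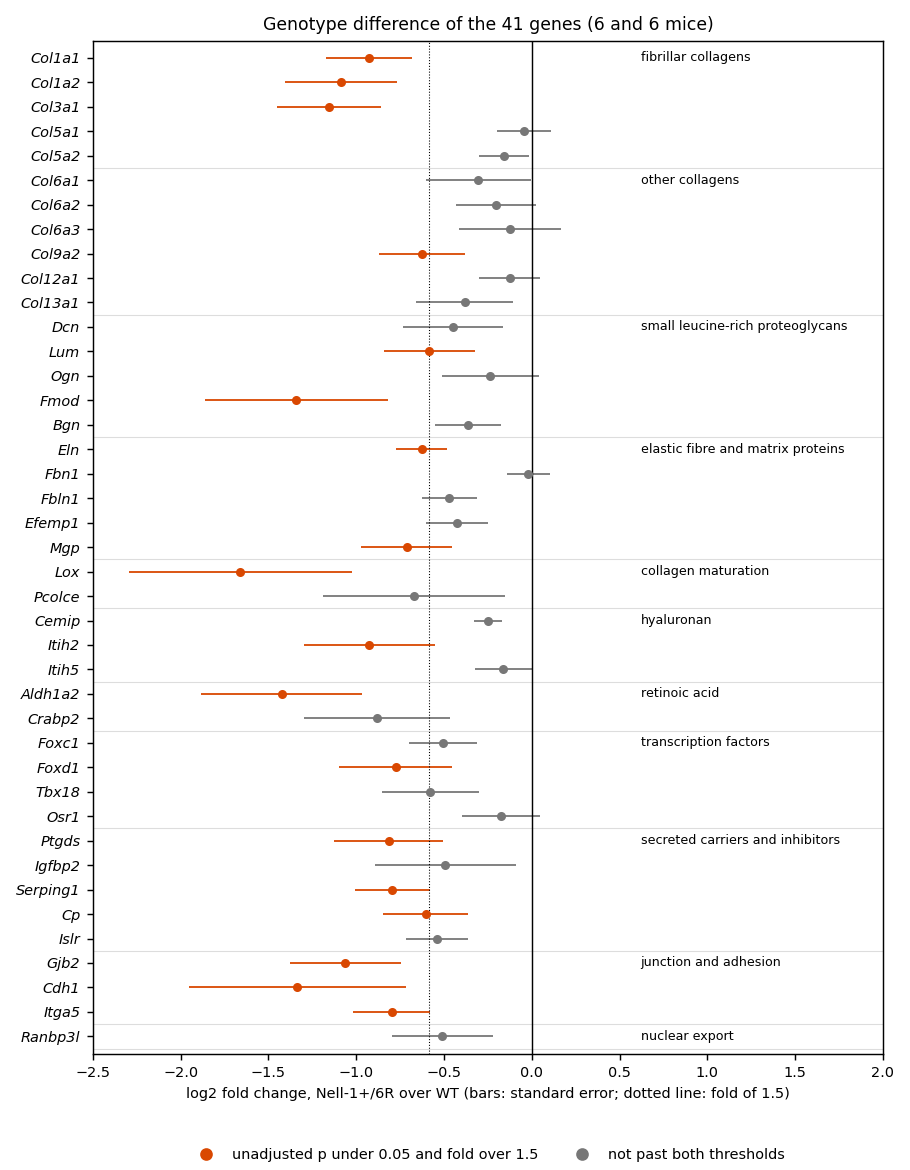
Log2 fold change of each of the 41 genes, *Nell-1+/6R* over WT, with its standard error, grouped by role; coloured genes passed both thresholds (unadjusted p under 0.05, fold over 1.5). All 41 points lie left of 0, and *Col5a1* and *Fbn1* lie closest to it.

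The fibrillar collagens divided into 3 that were lower past both thresholds and 2 that were not. *Col1a1* and *Col1a2* encode the chains of type I collagen and *Col3a1* that of type III, the bulk collagens of soft connective tissue, while *Col5a1* and *Col5a2* encode type V chains that start fibrils. *Col1a1* (Entrez 12842, chr11:94936224-94953042, plus strand, GRCm38) stood at 19.1, 21 and 7.1 CPM in the female WT mice, 10.8, 13.4 and 8.52 in the male WT mice, 7.9, 6.6 and 9.41 in the female *Nell-1+/6R* mice and 4.46, 8.52 and 4.83 in the male *Nell-1+/6R* mice (replicates 1, 2 and 3 in turn). Of the WT mice 4 were above every *Nell-1+/6R* mouse, while male WT replicate 3 and female WT replicate 3 lay among these. Its log2 fold change was -0.93 ± 0.25 (unadjusted p = 0.00203 by edgeR), a level 1.91-fold lower, and it stayed between -1.09 and -0.8 with any 1 mouse left out.

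*Col1a2* (Entrez 12843, chr6:4505618-4541543, plus strand) stood at 22.1, 16.8 and 6.89 CPM in the female WT mice, 11.7, 17.4 and 13.4 in the male WT mice, 9.51, 3.91 and 14.5 in the female *Nell-1+/6R* mice and 4.06, 6.61 and 4.28 in the male *Nell-1+/6R* mice (replicates 1, 2 and 3 in turn). Female *Nell-1+/6R* replicate 3 was as high as the middle WT mice and of the other 5 *Nell-1+/6R* mice 4 were below every WT mouse, with female replicate 1 above female WT replicate 3 alone. The log2 fold change was -1.09 ± 0.32 (unadjusted p = 0.00446). *Col3a1* (Entrez 12825, chr1:45311538-45349706, plus strand) ranged from 2.73 to 7.39 CPM around a median of 4.47 in WT mice and from 1.22 to 4.03 around 1.79 in *Nell-1+/6R* mice, with a log2 fold change of -1.16 ± 0.3 (unadjusted p = 0.00170). Without the 4 choroid-rich mice *Col3a1* still passed both thresholds at -1.06, and *Col1a1* and *Col1a2*, at -0.62 and -0.89, did not.

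The type V chains showed no such difference. *Col5a1* ranged from 28.7 to 50.1 CPM around a median of 31.7 in WT mice and from 28.2 to 43.6 around 35.1 in *Nell-1+/6R* mice (log2 fold change -0.04 ± 0.15, unadjusted p = 0.776), and *Col5a2* had 13.9 ± 2.25 CPM in WT and 12.5 ± 2.4 in *Nell-1+/6R* mice (-0.16 ± 0.14, unadjusted p = 0.279). The sign of *Col5a1* turned with the mouse left out, between -0.12 and 0.11. *Col3a1* and *Col5a2* are neighbours on chromosome 1, 24.6 kb apart on opposite strands, and their fold changes differed in size all the same. The ratio of *Col1a1* to *Col1a2*, per kilobase, ran from 0.576 to 1.13 in WT and from 0.585 to 1.52 in *Nell-1+/6R* mice, so the balance of the 2 type I chains overlapped between genotypes.

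Of the 6 other collagens 1 passed both thresholds. *Col9a2*, a chain of type IX collagen that sits on fibril surfaces, had 8.74 ± 2.96 CPM in WT and 5.65 ± 2.26 in *Nell-1+/6R* mice (log2 fold change -0.62 ± 0.24, unadjusted p = 0.0223), and it kept the call in 7 of the 12 fits that left out 1 mouse. The 3 chains of the beaded-filament collagen type VI had log2 fold changes of -0.3 ± 0.3 (*Col6a1*), -0.2 ± 0.23 (*Col6a2*) and -0.12 ± 0.29 (*Col6a3*). *Col6a1* and *Col6a2* turned above 0 without female WT replicate 1, and *Col6a3* without female WT replicate 2, and all 3 did without the 4 choroid-rich mice. *Col12a1*, a collagen that binds to fibrils, was at -0.13 ± 0.17, and *Col13a1*, a transmembrane collagen, at -0.38 ± 0.27; neither passed the p threshold.

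The small leucine-rich proteoglycans bind collagen fibrils and limit their growth. Of 5 members 2 passed both thresholds. *Fmod* (fibromodulin) stood at 32.5, 15.3 and 4.98 CPM in the female WT mice, 11.3, 17 and 5.27 in the male WT mice, 4.75, 1.63 and 18.4 in the female *Nell-1+/6R* mice and 3.11, 4.92 and 2.61 in the male *Nell-1+/6R* mice (replicates 1, 2 and 3 in turn). Female WT replicate 1 was highest, and the next was replicate 3 of the *Nell-1+/6R* females, above 5 of the 6 WT mice, while the 5 remaining *Nell-1+/6R* mice were all below the lowest WT mouse. The log2 fold change was -1.34 ± 0.52 (unadjusted p = 0.0224), and it was -2.0 without female *Nell-1+/6R* replicate 3. With any 1 mouse left out the weakest value was -1.02, and the call was lost without female WT replicate 1, without male WT replicate 2 and without the 4 choroid-rich mice (-1.04). *Lum* (lumican) ranged from 3.21 to 6.54 CPM around a median of 3.75 in WT mice and from 1.55 to 4.25 around 2.91 in *Nell-1+/6R* mice, with a log2 fold change of -0.59 ± 0.26, a fold of 1.50025 that only just passed, and it kept the call in 6 of the 12 fits. *Dcn* (decorin), the most abundant of the 5 per kilobase, had 26.2 ± 8.14 CPM in WT and 19.9 ± 8.99 in *Nell-1+/6R* mice (-0.45 ± 0.28), *Bgn* (biglycan) 18.4 ± 4.57 CPM in WT and 14.6 ± 5.06 in *Nell-1+/6R* mice (-0.36 ± 0.19) and *Ogn* (osteoglycin) 9.47 ± 3.46 CPM in WT and 7.86 ± 2.65 in *Nell-1+/6R* mice (-0.24 ± 0.28); these 3 missed the p threshold. *Dcn* and *Lum* lie 47.3 kb apart on chromosome 10, on the same strand.

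Among the elastic fibre and matrix proteins *Eln*, which encodes the tropoelastin of elastic fibres, separated the genotypes most cleanly. *Eln* (Entrez 13717, chr5:134702595-134747368, minus strand) stood at 18.6, 11.7 and 11.6 CPM in the female WT mice, 12.3, 17.9 and 14.6 in the male WT mice, 8.66, 9.62 and 10.9 in the female *Nell-1+/6R* mice and 7.58, 10.4 and 9.03 in the male *Nell-1+/6R* mice (replicates 1, 2 and 3 in turn). Every WT mouse was above every *Nell-1+/6R* mouse. The log2 fold change was -0.63 ± 0.14 (unadjusted p = 0.000651, adjusted p = 0.749 by edgeR). *Eln* and *Cemip* were the 2 of 41 whose genotypes did not overlap with WT higher, where 0.1% of all genes tested did so. *Eln* stayed apart in every alternative run, whereas *Cemip* overlapped in 5 of them. *Eln* nevertheless missed the thresholds without female WT replicate 1, male WT replicate 2 or the first male of the *Nell-1+/6R* group, where its log2 fold change was -0.52 at the weakest, and without the 4 choroid-rich mice (-0.55). On the opposite strand *Gm30003* shares 152 exon bases with *Eln*, and reads there cannot be told apart where counting ignored strand.

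*Mgp*, an inhibitor of matrix calcification, ranged from 9.35 to 23.9 CPM around a median of 14.5 in WT mice and from 5.01 to 16.5 around 7.27 in *Nell-1+/6R* mice and passed both thresholds (-0.71 ± 0.26, unadjusted p = 0.0164). It lost the call without female WT replicate 1, in edgeR without the sex term (not in limma-voom without it), with the choroid plexus covariate (-0.5, a fold under 1.5) and without the 4 choroid-rich mice (-0.63). *Fbln1* (fibulin 1), 12.4 ± 2.88 CPM in WT and 9.0 ± 1.9 in *Nell-1+/6R* mice, and *Efemp1* (fibulin 3), 11.9 ± 2.97 CPM in WT and 8.9 ± 2.46 in *Nell-1+/6R* mice, passed the p threshold but not the fold threshold, at -0.47 ± 0.16 and -0.42 ± 0.18. *Fbn1*, the fibrillin of microfibrils, was at -0.02 ± 0.12, ranged from 10.4 to 14.8 CPM around a median of 12.2 in WT mice and from 9.84 to 15.5 around 12 in *Nell-1+/6R* mice, and turned above 0 in 5 of the 12 fits that left out 1 mouse. The 2 main components of elastic fibres thus differed, with *Eln* apart and *Fbn1* overlapping over the whole range of WT.

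Collagen maturation was represented by *Lox*, the lysyl oxidase that crosslinks collagen and elastin, and *Pcolce*, which enhances the trimming of procollagen. *Lox* (chromosome 18) was near the detection limit, with 34 counts in all WT mice and 11 in all *Nell-1+/6R* mice. All 11 came from females: the 3 male *Nell-1+/6R* mice had 0 counts where the 3 male WT mice had 12. Of these 12, male WT replicate 2 held 7, replicate 1 held 4 and replicate 3 held 1, so the male difference leans on few counts and mostly on 1 mouse. The fitted log2 fold change over both sexes, -1.66 ± 0.64 (unadjusted p = 0.0209), rests on these few counts. *Pcolce* ranged from 4.03 to 18 CPM around a median of 10.2 in WT mice and from 2.44 to 26.7 around 3.26 in *Nell-1+/6R* mice (-0.67 ± 0.52, unadjusted p = 0.217). Its 4 highest mice were the 4 with many choroid plexus counts, and its log2 fold change was -0.14 with that marker level as a covariate.

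Of 3 hyaluronan genes 1 passed both thresholds. *Itih2* encodes a heavy chain that is bound to hyaluronan and had 3.78 ± 1.28 CPM in WT and 2.05 ± 1.37 in *Nell-1+/6R* mice (-0.93 ± 0.37, unadjusted p = 0.0264), with the call kept in 6 of the 12 fits. *Cemip*, which takes part in hyaluronan breakdown, stood at 40.5, 37.2 and 37.2 CPM in the female WT mice, 35.7, 42.8 and 38.7 in the male WT mice, 32.3, 25.3 and 34.6 in the female *Nell-1+/6R* mice and 34.6, 33.1 and 35.5 in the male *Nell-1+/6R* mice (replicates 1, 2 and 3 in turn). The difference was small, -0.25 ± 0.08 or 1.19-fold (unadjusted p = 0.00678), yet the lowest WT mouse was just above the highest *Nell-1+/6R* mouse. This gap closed under DESeq2 size factors, under 2 stricter filters, and without male WT replicate 3 or male *Nell-1+/6R* replicate 2. *Itih5*, which lies next to *Itih2* on chromosome 2 at a distance of 22.9 kb, was at -0.16 ± 0.16 and missed the p threshold.

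Retinoic acid is made in meningeal fibroblasts by the enzyme encoded by *Aldh1a2*. *Aldh1a2* (Entrez 19378, chr9:71215789-71296243, plus strand) stood at 21.6, 10.5 and 7.16 CPM in the female WT mice, 8.72, 12.4 and 4.22 in the male WT mice, 2.07, 1.79 and 12.5 in the female *Nell-1+/6R* mice and 1.76, 3.89 and 2.53 in the male *Nell-1+/6R* mice (replicates 1, 2 and 3 in turn). Female *Nell-1+/6R* replicate 3 was above 5 of the 6 WT mice, and the other 5 *Nell-1+/6R* mice were all below the lowest WT mouse. The log2 fold change was -1.42 ± 0.46 (unadjusted p = 0.00782), between -2.1 and -1.18 with 1 mouse left out. *Crabp2*, which carries retinoic acid in the cell, had 145 counts in WT and 81 in *Nell-1+/6R* mice (-0.88 ± 0.42, unadjusted p = 0.0536) and passed under some alternatives.

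The transcription factors *Foxc1*, *Foxd1*, *Tbx18* and *Osr1* mark meningeal and perivascular mesenchyme. *Foxd1* ranged from 1.43 to 5.01 CPM around a median of 2.95 in WT mice and from 0.676 to 3.04 around 1.75 in *Nell-1+/6R* mice and passed both thresholds (-0.78 ± 0.32, unadjusted p = 0.0307), in 7 of the 12 fits with 1 mouse left out. *Foxc1*, needed for meningeal development, ranged from 6.0 to 12.4 CPM around a median of 8.78 in WT mice and from 5.07 to 9.56 around 5.53 in *Nell-1+/6R* mice and passed the p threshold alone (-0.5 ± 0.19). *Tbx18* was at -0.58 ± 0.28 (unadjusted p = 0.0561), with 931 of its exon bases shared with *D030062O11Rik* on the opposite strand. *Osr1* had 3.33 ± 0.858 CPM in WT and 2.95 ± 0.956 in *Nell-1+/6R* mice (-0.18 ± 0.22) and missed it.

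Among the secreted carriers and inhibitors *Ptgds* was the most abundant gene of the 41. *Ptgds* (Entrez 19215, chr2:25466709-25470110, minus strand) stood at 893, 651 and 341 CPM in the female WT mice, 486, 675 and 277 in the male WT mice, 325, 243 and 662 in the female *Nell-1+/6R* mice and 196, 363 and 152 in the male *Nell-1+/6R* mice (replicates 1, 2 and 3 in turn). The ranges of the genotypes overlapped widely, with female *Nell-1+/6R* replicate 3 the third highest of all 12 mice. The log2 fold change was -0.82 ± 0.31 (unadjusted p = 0.0203), and the call was lost without female WT replicate 1 or male WT replicate 2. Oligodendrocytes also express *Ptgds*; the 6 oligodendrocyte markers had a median log2 fold change of -0.11 and 0 of them passed the thresholds.

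*Serping1*, the C1 inhibitor of the complement cascade, stood at 15.2, 11.4 and 7.78 CPM in the female WT mice, 10.9, 13.4 and 8.17 in the male WT mice, 8.66, 6.84 and 11 in the female *Nell-1+/6R* mice and 4.6, 4.99 and 3.96 in the male *Nell-1+/6R* mice (replicates 1, 2 and 3 in turn). The male *Nell-1+/6R* mice were below every other mouse, and the females overlapped. Its log2 fold change of -0.79 ± 0.21 (unadjusted p = 0.00226) passed both thresholds in every alternative run. *Cp*, the copper carrier ceruloplasmin, had 12.3 ± 3.16 CPM in WT and 8.15 ± 3.62 in *Nell-1+/6R* mice (-0.61 ± 0.24, unadjusted p = 0.0255) and kept the call in 7 of 12 fits. *Islr*, a secreted leucine-rich protein, had 20.4 ± 4.12 CPM in WT and 14.3 ± 4.74 in *Nell-1+/6R* mice and passed the p threshold alone (-0.54 ± 0.18, unadjusted p = 0.00899). *Igfbp2*, a carrier of insulin-like growth factors, ranged from 34.3 to 98.3 CPM around a median of 45.5 in WT mice and from 23.5 to 120.2 around 27.2 in *Nell-1+/6R* mice (-0.49 ± 0.4). Like *Pcolce* it was highest in the 4 choroid-rich mice, and with that marker level as a covariate its log2 fold change was -0.05.

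All 3 junction and adhesion genes passed both thresholds. *Gjb2*, which encodes the gap junction protein connexin 26, stood at 22.8, 18.9 and 6.55 CPM in the female WT mice, 12.2, 15.1 and 6.59 in the male WT mice, 4.68, 5.79 and 12 in the female *Nell-1+/6R* mice and 3.92, 7.64 and 5.15 in the male *Nell-1+/6R* mice (replicates 1, 2 and 3 in turn). Male WT replicate 3 and female WT replicate 3 lay among the *Nell-1+/6R* mice, and the 4 other WT mice were above all of these. The log2 fold change was -1.06 ± 0.32 (unadjusted p = 0.00490). *Itga5*, the fibronectin receptor subunit, ranged from 2.99 to 4.95 CPM around a median of 3.77 in WT mice and from 1.19 to 3.68 around 2.11 in *Nell-1+/6R* mice (-0.8 ± 0.22, unadjusted p = 0.00258) and passed in every alternative run. *Cdh1*, the E-cadherin of arachnoid barrier cells, had only 69 counts in WT and 28 in *Nell-1+/6R* mice (-1.34 ± 0.62, unadjusted p = 0.0483) and kept the call in 3 of the 12 fits with 1 mouse left out. The remaining gene, *Ranbp3l*, had 5.85 ± 2.05 CPM in WT and 4.1 ± 1.86 in *Nell-1+/6R* mice (-0.51 ± 0.29) and missed the p threshold.

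**Figure D3:**
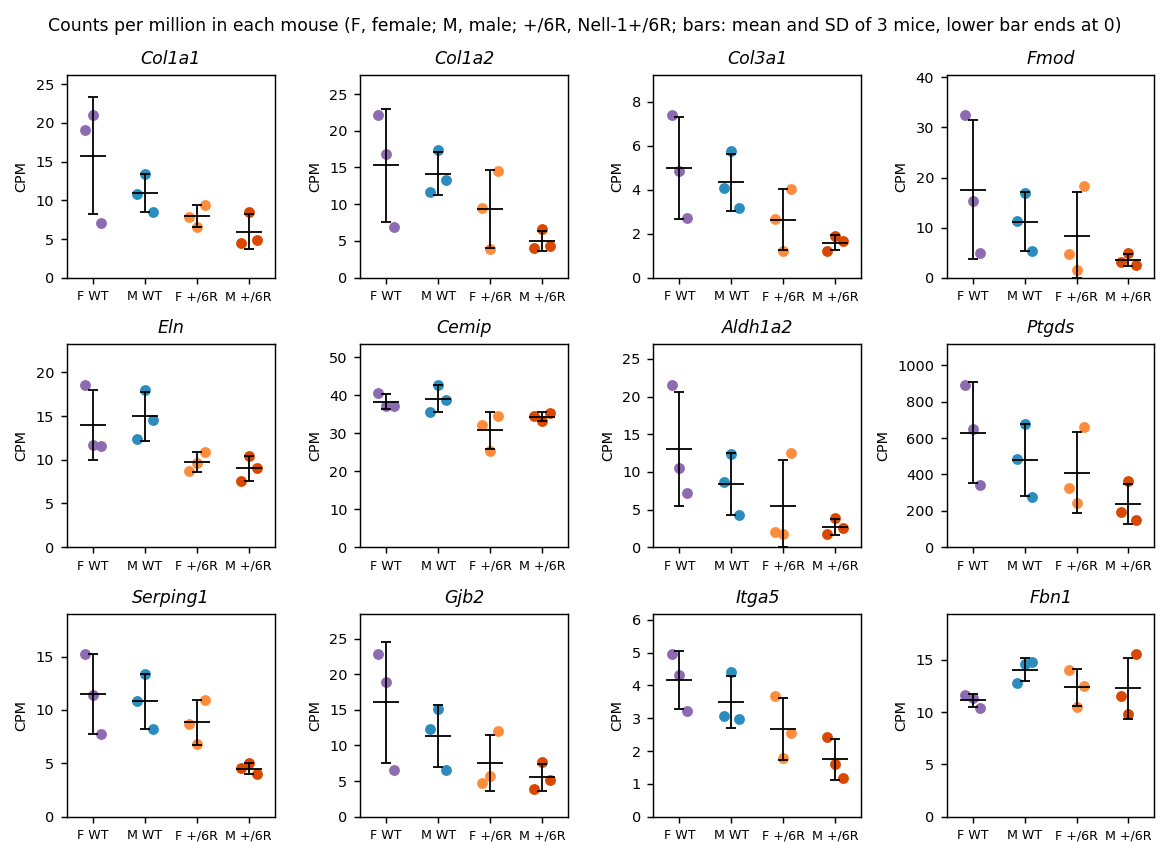
CPM in each mouse for 12 of the genes, with the mean and SD of the 3 mice of each sex and genotype (F, female; M, male; +/6R, *Nell-1+/6R*). *Eln* does not overlap between the genotypes, *Fmod* and *Aldh1a2* have 1 high mouse among the female *Nell-1+/6R* mice, and *Fbn1* overlaps fully.

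Within females 36 of the 41 genes had a log2 fold change below 0, with a median of -0.42, and 7 had an unadjusted p under 0.05 with a lower level (1.61% of all genes). Within males 34 were below 0, with a median of -0.84, and 18 had such a p (2.28% of all genes). These counts alone do not show that the sexes differ. The choroid-rich mice were spread unevenly over sex and genotype. In the summed choroid plexus markers, female *Nell-1+/6R* replicate 1 was at 5214 CPM beside 65.4 and 45.9 in the other females of its genotype. Female WT replicates 1 and 2 were at 2123 and 802 CPM, beside 55.3 in replicate 3. Among males only WT replicate 3 was choroid-rich, at 4685 beside 132 and 134 in the other WT males. The part of these choroid-rich mice in the values by sex was not tested. The test of the difference, the genotype by sex interaction, had an unadjusted p under 0.05 for 5 of 41 genes (12.2%, against 3.09% of all genes), none of them after adjustment (lowest adjusted p of the 41 0.987 by edgeR). Over the fits that left out 1 mouse that number ran from 2, without female WT replicate 3 or male WT replicate 2, to 8, without female *Nell-1+/6R* replicate 2, and it was 3 without replicate 1 of either *Nell-1+/6R* sex.

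The 5 genes did not share a direction. *Col6a1* was at -1.03 in females and 0.45 in males (log2 fold changes, interaction, unadjusted p = 0.00579). Its highest female WT mouse was replicate 1 with 84.2 CPM beside 41.7 and 31.5 in the other female WT mice, and the female *Nell-1+/6R* mice had 20.1, 22.2 and 35 CPM. The other 4 were lower chiefly in males. *Serping1* was at -0.38 in females and -1.25 in males, *Mgp* at -0.23 in females and -1.26 in males and *Col13a1* at 0.15 in females and -1.0 in males. *Lox* is the gene with 0 counts in male *Nell-1+/6R* mice given above. The fibrillar collagens *Col1a1* (-0.98 in females and -0.88 in males) and *Col3a1* (-0.91 in females and -1.44 in males) had an unadjusted p under 0.05 in each sex, and *Eln* did as well (-0.52 in females and -0.73 in males).

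The genes varied together from mouse to mouse within a genotype. For each gene the log2 CPM (prior count of 2) of a mouse was set against the mean of its genotype, and the median over the 41 genes was +0.63 for female *Nell-1+/6R* replicate 3, +0.55 for female WT replicate 1 and -0.44 for female WT replicate 3. The first of these was the highest *Nell-1+/6R* mouse in 28 of 41 genes (68.3%, against 14.5% of all genes tested). Female WT replicate 1 was the highest WT mouse in 26 (63.4%, against 15.4%), and female WT replicate 3 was the lowest in 22 (53.7%, against 18.8%). The 41 values of a genotype difference are thus not separate observations of it, because each of them is drawn from the same 12 mice with the same high and low ones.

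The same mice stood out by summed level. The 41 genes summed to 1668 CPM in female WT replicate 1 and 736 in female WT replicate 3, and to 1179 in female *Nell-1+/6R* replicate 3 and 520 in male *Nell-1+/6R* replicate 1, so that the WT and *Nell-1+/6R* ranges overlapped. *Ptgds* made up much of this sum. Leaving out *Ptgds* and *Igfbp2*, the other 39 genes summed to between 359.8 and 697 CPM in WT and between 272 and 484 in *Nell-1+/6R* mice. The 5 fibrillar collagens summed to between 59.2 and 113 CPM in WT and between 51.5 and 78.7 in *Nell-1+/6R* mice.

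**Figure D4:**
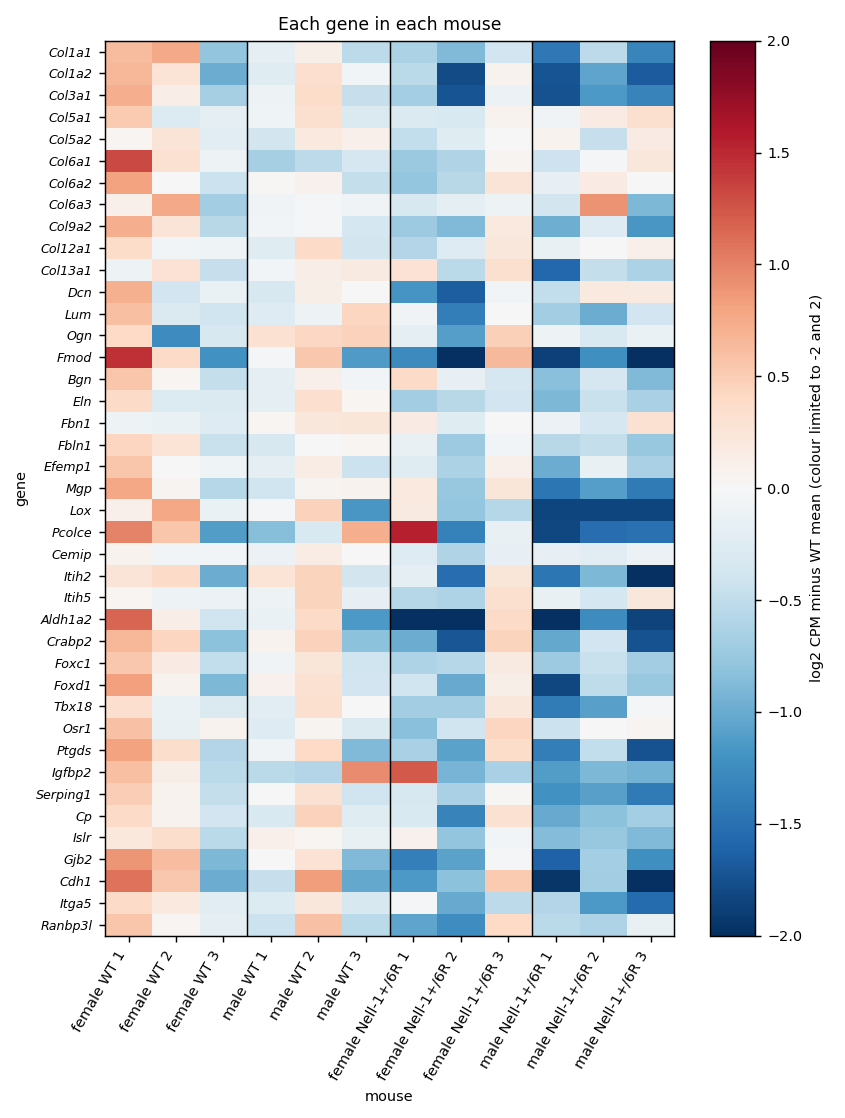
Log2 CPM of each gene in each mouse minus the mean of the 6 WT mice, with colours limited to values between -2 and 2, red above the WT mean and blue below it. The columns of female WT replicate 1 and of female WT replicate 3 differ from top to bottom, and female *Nell-1+/6R* replicate 3 is the palest or reddest of its genotype in most rows.

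Other cell types of the brain surface and vessels were examined through lists of their markers. Leptomeningeal fibroblast markers outside the 41 were all 12 below 0, around a median log2 fold change of -0.56, and 3 passed both thresholds: *Slc6a13* (-1.08 ± 0.41), *Slc22a6* (-1.28 ± 0.47) and *Slc6a20a* (-0.82 ± 0.33), transporters of the plasma membrane, all 3 in the study's own list. Their summed level was 80.0 to 168 CPM in WT and 52.6 to 139 in *Nell-1+/6R* mice, and replicate 1 of the WT females and replicate 3 of the *Nell-1+/6R* females were again the highest of their genotypes. The receptor gene *Pdgfra*, which oligodendrocyte precursors express too, was at -0.11 ± 0.15.

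Border-associated macrophages live among these fibroblasts. Of their 8 markers 5 passed both thresholds, all lower, among them *Mrc1* (-0.93 ± 0.26) and *Cd163* (-0.82 ± 0.29), beside 1.07% of all genes tested. All 5 were in the study's own list, so they are not independent evidence of a direction. The 8 markers summed to 27.9 to 41.2 CPM in WT and 21 to 34.3 in *Nell-1+/6R* mice. Of 10 mural cell markers 3 passed, the smooth muscle genes *Acta2* (-1.17 ± 0.34), *Myh11* (-1.01 ± 0.31) and *Tagln* (-0.88 ± 0.28), all 3 again in the study's own list. The 10 markers summed to 137 to 211 CPM in WT and 121 to 155 in *Nell-1+/6R* mice. The 7 other mural markers lay between -0.22 (*Pdgfrb*) and 0.08 (*Rgs5*), and the median of the list was -0.08. None of 10 endothelial markers (165 to 202 against 163 to 202 CPM), 8 astrocyte markers (3656 to 4648 against 3286 to 4753), 6 oligodendrocyte markers, 5 ependymal markers or 8 neuron markers passed both thresholds. The 10 choroid plexus markers, none of which passed with the sexes together (median log2 fold change -1.0), had opposite signs in the fits by sex: in females 0 of 10 were below 0 (median 0.73) and in males 10 of 10 were (median -3.33). By summed level without male WT replicate 3, the WT males were at 132 and 134 CPM, still above the *Nell-1+/6R* males at 49.9 to 81.4. Without replicate 1 the *Nell-1+/6R* females were at 65.4 and 45.9 CPM beside 55.3 to 2123 in the WT females. How far the values by sex depend on these mice was not tested. The 5 ependymal markers also had opposite signs, with 0 of 5 below 0 in females and 5 of 5 in males, none with an unadjusted p under 0.05. The part of these cell types in the values of the 41 genes was not tested beyond the fits without the 4 choroid-rich mice and with the choroid plexus covariate.

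Lists of 104 related genes outside the 41 held matrix genes, collagen receptors, retinoic acid genes and further leptomeningeal markers. Of the 102 tested, 75 were below 0, 11 had an unadjusted p under 0.05, all of them lower, and the median log2 fold change was -0.13. Past both thresholds 6 were lower (5.88%, beside 1.07% of all genes tested) and 0 were higher. The number past both thresholds was 2 without female WT replicate 1 but 19 without replicate 1, and 11 without replicate 3, of the *Nell-1+/6R* females, and 12 without female WT replicate 3. Among 25 other fibrillar and network collagens 1 passed, the basement membrane chain *Col4a6* (-0.6 ± 0.25), while *Col4a2*, 1 of the 5 listed genes with the highest CPM, had 122 ± 10.7 CPM in WT and 128 ± 16.1 in *Nell-1+/6R* mice (0.07 ± 0.09). None of 21 genes for collagen folding, processing and crosslinking passed, with a median of -0.02 and with *Bmp1*, a procollagen protease, at -0.06 ± 0.11 and *Sparc*, a collagen chaperone of the matrix, at 0.06 ± 0.06. Among 28 other proteoglycans and matrix glycoproteins *Fbln5*, an elastic fibre assembly protein, passed (-0.82 ± 0.21), beside *Ltbp4* at -0.07 ± 0.06. The collagen receptor *Ddr1* was at -0.12 ± 0.12, and none of 6 receptors passed. Of 11 further retinoic acid genes *Aldh1a3*, another retinaldehyde dehydrogenase, passed (-1.0 ± 0.3). The remaining 3 of the 6 were the transporters named above. Of the 6 only *Col4a6* was outside the study's own list. The further leptomeningeal markers counted here are also in the marker list given above.

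The fits with 1 mouse left out and the other settings are drawn together for the number of the 41 genes past both thresholds.

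**Figure D5:**
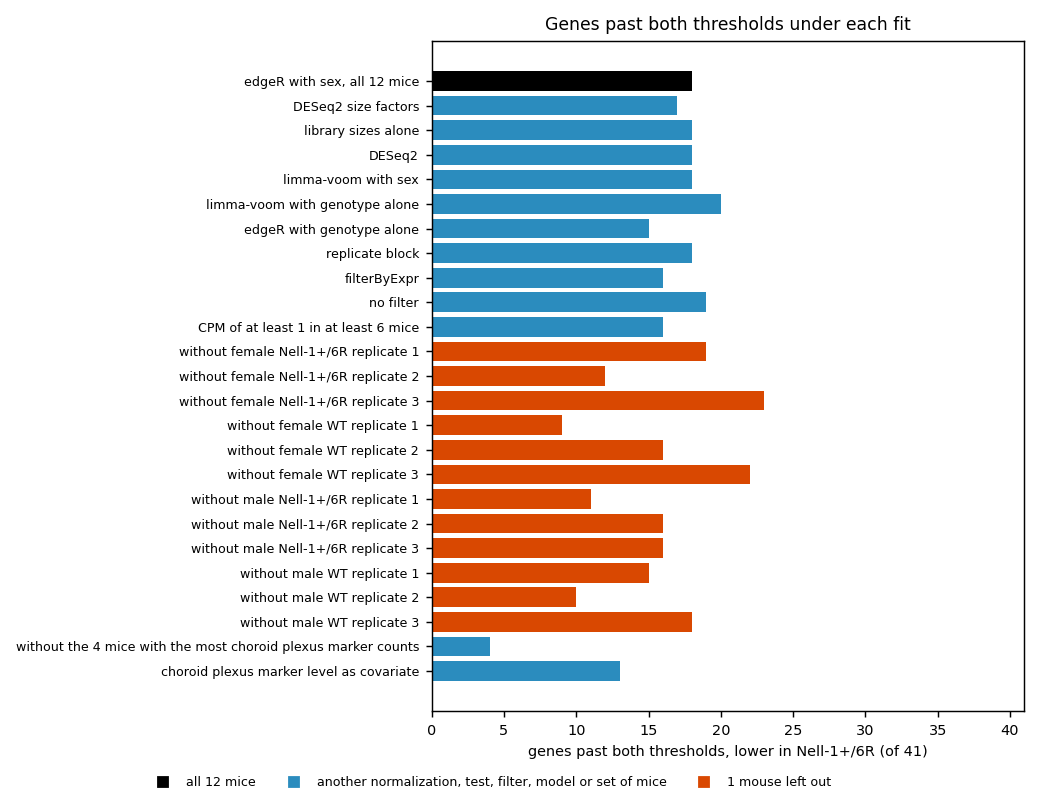
Number of the 41 genes that were lower in *Nell-1+/6R* than in WT mice by a fold over 1.5 and an unadjusted p under 0.05 (horizontal axis) under each fit (rows): all 12 mice in black, other normalizations, tests, filters, models or sets of mice in blue, and fits with 1 mouse left out in orange. The number is 18 with all 12 mice, runs from 9 to 23 with 1 mouse left out, and is 4 without the 4 choroid-rich mice.

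Start-site sequences were read for the 41 genes, whether or not they passed the thresholds, to show what their promoters hold. RefSeq windows of GRCm38.p6, with 250 bases before a start site and 50 from it on, were matched by symbol for 29 of the 41 genes (33 windows). Stretches of 150 bases that end 1 base before the start site are printed 5′ to 3′ on the strand of the gene. They are those of a type I and a type III collagen chain, the retinoic acid enzyme, a mesenchymal transcription factor and the most abundant gene, and capitals mark a CCAAT box, a TATA box or a T-box motif on either strand:
*Col1a2*, chr6:4505468-4505617, plus strand: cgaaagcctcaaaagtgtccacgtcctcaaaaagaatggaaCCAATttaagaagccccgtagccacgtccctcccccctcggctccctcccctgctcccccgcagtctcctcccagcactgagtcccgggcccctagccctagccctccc
*Col3a1*, chr1:45311388-45311537, plus strand: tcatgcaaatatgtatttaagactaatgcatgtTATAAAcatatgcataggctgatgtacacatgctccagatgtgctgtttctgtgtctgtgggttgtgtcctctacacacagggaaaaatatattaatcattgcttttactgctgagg
*Aldh1a2*, chr9:71215639-71215788, plus strand: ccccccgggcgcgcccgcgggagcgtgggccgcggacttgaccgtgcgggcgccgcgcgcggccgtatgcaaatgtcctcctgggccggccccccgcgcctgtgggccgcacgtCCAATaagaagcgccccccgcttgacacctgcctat
*Tbx18*, chr9:87731261-87731410, minus strand: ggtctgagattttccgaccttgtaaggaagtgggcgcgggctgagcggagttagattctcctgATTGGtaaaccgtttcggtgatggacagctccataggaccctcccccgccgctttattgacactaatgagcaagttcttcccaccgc
*Ptgds*, chr2:25469750-25469899, minus strand: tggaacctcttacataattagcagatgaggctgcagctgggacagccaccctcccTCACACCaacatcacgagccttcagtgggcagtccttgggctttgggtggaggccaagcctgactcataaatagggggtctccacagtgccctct

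Among these, CCAAT began at -109 in *Col1a2*, at -36 in *Aldh1a2* and, on the other strand, at -87 in *Tbx18*, where 0 is the first base of the transcript. TATAAA began at -117 in *Col3a1*, and the T-box letters GGTGTGA at -95 in *Ptgds* on the other strand. Searched on both strands, CCAAT was in 21.2% of the 33 windows of these genes and in 37.4% of all 32851 windows, TATAAA in 15.2% and 13.6%, the GC box GGGCGG in 51.5% and 35.7%, GGTGTGA in 3.03% and 3.98%, and the forkhead letters TGTTTAC in 3.03% and 3.65%. The Smad box GTCTAGAC (0.213% of all windows) and a direct repeat bound by retinoic acid receptors, spaced by 5 bases (0.00913%), were in 0 of the 33. Of the 7 motifs searched the GC box was in the most genes, 16 of the 29 with a window, and a match of letters shows no binding.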

How the data were processed

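Hippocampus RNA of 12 mice was sequenced, and the authors deposited raw read counts per Entrez gene ID in 1 table, without normalization or pooling; 0 of its columns were left unmatched to a sample. The submitters' processing notes name HISAT2 2.1.0, featureCounts 2.0.1 and the genome mm10. The study's methods give an older featureCounts version, and which of them made the counts is not stated; for the strand setting of the counting the sources used here give nothing. Depth was 10834905 to 16016317 counts per mouse.

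The analysis computed TMM-scaled CPM and edgeR 4.0.16 quasi-likelihood tests (R 4.3.3; sex and genotype as terms) over the 17937 genes that reached 0.2 CPM in 2 or more mice, with Benjamini-Hochberg adjustment. DESeq2 1.42.0, limma 3.58.1 (voom), other filters, a replicate block and each mouse left out were alternatives. Effects by sex came from a model of 4 groups. Exon lengths are unions over RefSeq-matched GENCODE M21 transcripts, on GRCm38, the same build as mm10; exons of 7 of the 41 genes overlap another gene. The fit was also run on simulated counts, and the outcome is not reported here. All 41 genes are named, with those related genes that passed both thresholds or had the 5 highest CPM. The genes and lists were chosen with earlier results of these data known. The labels number the mice of each group but name no litters or batches. The study calls the WT mice littermates, and without litter labels the fits take no account of this.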

Additional observations from a re-analysis of the deposited data

Results flagged for a closer look

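Of 84 groups of 6 mice (41 genes and their median deviation, in each genotype) 4, or 4.76%, held a mouse whose gap to its nearest neighbour took up more of the group's range in log2 CPM than Dixon's critical value for 6 samples allows, where chance marks about 1 group in 20. The gap was 0.719 of the range for *Cemip* in female *Nell-1+/6R* replicate 2, the lowest mouse, and 0.665 for *Itih5* in male WT replicate 2, the highest. For *Foxc1* it was 0.693, in female *Nell-1+/6R* replicate 3. For *Igfbp2* it was 0.796, in the *Nell-1+/6R* mouse with the most choroid plexus counts, female replicate 1.

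In 5 of 41 genes the genotype effect differed between females and males at an unadjusted p under 0.05 (edgeR interaction), with 0 after adjustment. The female minus male difference in log2 fold change was -1.48 ± 0.45 for *Col6a1*, 1.15 ± 0.47 for *Col13a1*, 1.03 ± 0.46 for *Mgp* and 0.877 ± 0.36 for *Serping1*. For *Lox* it was 4.42, a fitted value that depends on how 0 counts in the male *Nell-1+/6R* mice are handled and is no bound.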

How the results depend on the processing

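The genotypes were compared under 24 other settings, 12 of them without 1 mouse. Of the 41 genes 15 to 20 were lower past both thresholds under the 10 settings planned with all mice, and 0 were higher or had an adjusted p under 0.05 in any setting. Without 1 mouse the numbers ran from 9 to 23 lower, 13 to 27 with an unadjusted p under 0.05, 1 to 5 without overlap, 0 to 4 outside the study's list, 2 to 19 related genes lower, 140 to 312 (the latter without female *Nell-1+/6R* replicate 1) of all genes lower and 2 to 8 genes with an interaction. Genotypes of 1 gene in place of 2 did not overlap under DESeq2 size factors, filterByExpr and a CPM of at least 1 in 6 mice. Of all genes, 35 were higher by DESeq2, 104 with no filter, 93 lower and 17 higher with filterByExpr, and 75 lower and 7 higher with the CPM filter of 1, where fewer genes were tested. The remaining 2 alternatives were chosen after seeing the data. Without the 4 choroid-rich mice 4 of the 41 were lower past both thresholds, 7 had an unadjusted p under 0.05, 5 did not overlap, 0 outside the study's list passed, 3 related genes and 103 of all genes were lower, and 5 genes turned above 0: *Col5a1* (0.042), *Col5a2* (0.037), *Col6a1* (0.28), *Col6a2* (0.091) and *Col6a3* (0.28). With the choroid plexus covariate 2 genes outside the study's list passed and *Fbn1* was at 0.042. Signs also turned without 1 mouse, with ranges of -0.12 to 0.11 for *Col5a1*, -0.45 to 0.015 for *Col6a1*, -0.32 to 0.023 for *Col6a2*, -0.45 to 0.092 for *Col6a3* and -0.087 to 0.068 for *Fbn1*. The cause was not tested.

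Correlations of same-numbered mice ran from -0.20 to 0.24 and 2 of 6 were over 0.1. Those of differently numbered mice of the same sex ran from -0.36 to 0.26. The values thus gave no sign that the replicate numbers pair the mice, but so few mice cannot exclude it. With a replicate block (number within sex) 18 of the 41 were again lower past both thresholds, with *Cdh1* lost and *Crabp2* gained. Depth limits *Lox*, *Cdh1* and *Crabp2*, which had under 150 counts over all WT mice.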
